A study of Mus musculus with 12 samples.

Results

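The miRNAs described here are those of the imprinted Dlk1-Dio3 domain on distal mouse chromosome 12. They were taken from the deposited table by name, as every row whose miRNA number was 1 of 47 numbers assigned to the domain, with any letter and either arm of the hairpin. The rule itself used no measured value, but it was chosen with earlier results of these data known. The rule found 100 of the 1251 rows. The smallest value in every library was 3.3219, the log2 of 10, and 65 of the 100 rows rose above this floor in at least 1 of the 12 libraries. Of these, 61 did so in at least 2 libraries and were tested, 30 did so in all 12, and 4 did so in 1 library and were not tested. The other 35 rows stayed at the floor in every library.

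The small RNA libraries came from mice of the C57Bl6 strain, either wild type (WT) or TAp63-/-, that is, homozygous for loss of the p63 isoforms that carry the transactivation domain. Untreated dorsal skin was taken at 4 weeks of age, with 3 WT and 3 TAp63-/- libraries. The tumours were cutaneous squamous cell carcinomas (SCC) of mice over 35 weeks old, under chronic ultraviolet radiation (UVR) at 2.5 kJ per square metre, 3 times a week, with 2 WT and 4 TAp63-/- libraries. How the TAp63 allele was made is not given in the sources used here, and a small RNA library does not measure the TAp63 transcript, so the genotype could not be checked. Tumour libraries differ from skin libraries in age and UVR exposure as well as in tissue, and these cannot be told apart. The titles of all tumour libraries start with LM and those of all skin libraries with Su. What these letters stand for is not given, so any difference in handling could not be told apart from tissue either. The labels do not state that each library is a separate mouse, so p-values measure the spread between these libraries, which may be technical.

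In the Dlk1-Dio3 domain, the protein-coding genes Dlk1, Rtl1 and Dio3 are expressed from the paternally inherited chromosome. The long noncoding RNAs Meg3, Rian and Mirg and the miRNAs among them are expressed from the maternally inherited chromosome. The domain holds a very large group of miRNA genes, known for high levels in embryo, placenta and brain, and lower levels in most adult tissues. A miRNA hairpin is cut into a 5p and a 3p arm, either of which can be loaded into Argonaute and guide it to messages that pair with its seed.

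The 100 rows come from 51 hairpins. By RefSeq and GENCODE (build GRCm38.p6, which is mm10), 50 of these lie on chromosome 12 between 109563692 and 109743795, a span of 180.1 kb, and 49 of those are on the plus strand. The hairpins of miR-127, miR-136, miR-431, miR-433 and miR-434 lie within the exon of Rtl1 (109589193-109600330, minus strand), on the opposite strand. These miRNAs are thus perfectly complementary to the Rtl1 message, and are known to cut it. The hairpin of miR-770 lies in an exon of Meg3, and those of miR-341 and miR-370 lie in introns of Rian. A dense array of 37 hairpins runs from miR-379 to miR-410 (109709060-109743795, 34.7 kb), and its distal part overlaps Mirg. The exception is miR-496b, which shares its number with miR-496a but maps to chromosome 19. It stayed at the floor in every library.

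Mature sequences were found in RefSeq for 96 of the 100 rows and for 58 of the 61 tested rows. The following are the miRNAs on which the results below turn, written 5′ to 3′ with the seed, bases 2 to 8, in capitals.
miR-127-3p: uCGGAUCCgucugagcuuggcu
miR-411-5p: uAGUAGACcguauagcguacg
miR-136-3p: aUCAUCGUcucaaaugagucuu
miR-434-5p: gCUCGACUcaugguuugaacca
miR-434-3p: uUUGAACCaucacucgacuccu
miR-409-5p: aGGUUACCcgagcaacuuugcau
miR-409-3p: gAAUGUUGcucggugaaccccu
miR-379-5p: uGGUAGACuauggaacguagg
miR-376b-5p: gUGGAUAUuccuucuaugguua
miR-299a-5p: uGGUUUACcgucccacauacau
miR-299b-5p: gGUUUACCgucccacauacau

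Within the tested rows with a sequence there were 56 distinct seeds, and 2 of them were shared by more than 1 row. The 3p arms of miR-379 and miR-411, from neighbouring hairpins at the start of the array, share a seed and differ, counted from the 5′ end, by U10C and U22C from miR-379-3p to miR-411-3p. Their 5p arms differ inside the seed, by G2A from miR-379-5p to miR-411-5p, and at 6 positions outside it. The abundant 3p arms of miR-300 and miR-381 are also alike, and differ in the seed by G4A from miR-300-3p to miR-381-3p. These pairs are shown because reads of such similar miRNAs can be hard to assign, and how the authors assigned them was not given in the sources used here.
miR-379-3p: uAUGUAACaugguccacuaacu
miR-411-3p: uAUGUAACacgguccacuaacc
miR-300-3p: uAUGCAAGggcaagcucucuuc
miR-381-3p: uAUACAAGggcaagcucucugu

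The other shared seed belongs to the 3p arms of miR-299a and miR-299b. The miR-299b hairpin lies inside that of miR-299a on the minus strand, and its 21-base 5p product lies whole inside the 22-base miR-299a-5p, as the sequences above show. The deposited rows of miR-299a and miR-299b hold the same value in every library for both arms. They were therefore taken as 1 measurement per arm where distinct miRNAs are counted, which leaves 59 distinct tested miRNAs. Counts and medians of rows, arms or calls that are not said to be of distinct miRNAs include both. Only miR-299a is named below.

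Values are deposited log2 levels, quantile normalized between libraries, so that identical values in different libraries mark identical ranks. Read counts are not kept by them and sequencing depth is unknown. The nearest measure of depth, the number of rows of the whole table above the floor, was 370 to 465 in the skin libraries, 402 to 420 in WT tumours and 432 to 545 in TAp63-/- tumours. The epithelial miRNAs miR-205-5p and miR-203-3p were between 16.29 and 18.75 in all 12 libraries. The 5 listed miRNAs of the miR-200 family set TAp63-/- tumour replicate 2 apart: miR-141-3p was at 11.73 there and at 14.99 to 16.17 in the other libraries, and miR-200b-3p was at 11.07 against 13.13 to 14.41. Without that library the averaged comparison of tumour and skin below called 30 cluster rows lower (33 with it) and the one within TAp63-/- called 31 (36 with it). The printed mature sequences are of nearly equal length, so no length correction was made.

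Cluster miRNAs made up a small part of the measured miRNA. On the linear scale their rows summed to 1.08, 1.11 and 1.25% of the library in WT skin and to 2.14, 1.41 and 1.48% in TAp63-/- skin. In WT tumours the sum was 0.484 and 0.801%, and in TAp63-/- tumours it was 0.413, 0.570, 1.13 and 0.773%. The highest share was thus in TAp63-/- skin replicate 1, and tumour and skin shares overlapped only through TAp63-/- tumour replicate 3. The number of cluster rows above the floor was 42, 50 and 46 in WT skin, 47, 58 and 56 in TAp63-/- skin, 33 and 43 in WT tumours, and 42, 50, 59 and 57 in TAp63-/- tumours. The number detected was therefore not uniformly lower in tumours. These counts were not scaled to the rows detected in the whole table, which numbered 370 to 465 in skin and 432 to 545 in TAp63-/- tumours. These are bulk samples, in which fewer cells of a type and less RNA per cell cannot be told apart.

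A few miRNAs carried most of this signal. miR-127-3p, transcribed antisense to Rtl1 and required for a normally formed placenta, held 51.8 to 61.5% of the cluster's linear sum in each library. Its level stood at 15.28, 15.13 and 15.28 in WT skin and at 16.29, 15.45 and 15.54 in TAp63-/- skin. It was at 14.12 and 14.82 in WT tumours and at 13.79, 14.19, 15.23 and 14.57 in TAp63-/- tumours. Every tumour library except TAp63-/- tumour replicate 3 lay below every skin library.

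miR-411-5p, from the second hairpin of the array, was next in mean level. It stood at 13.70, 14.07 and 14.19 in WT skin and at 14.50, 14.12 and 14.37 in TAp63-/- skin, and at 12.15 and 13.34 in WT tumours and at 12.25, 12.89, 14.07 and 13.34 in TAp63-/- tumours. Skin and tumour overlapped again through TAp63-/- tumour replicate 3. The 3p arm of miR-434, another miRNA antisense to Rtl1, came after it and stood at 10.80, 10.92 and 11.54 in WT skin and at 12.07, 12.15 and 11.57 in TAp63-/- skin. It was at 11.15 and 11.40 in WT tumours and at 10.75, 11.15, 12.15 and 11.89 in TAp63-/- tumours, within the range of the skin libraries or just below it.

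miR-136-3p, also antisense to Rtl1, behaved unlike miR-434-3p. It was at 11.10, 11.40 and 11.29 in WT skin and at 11.95, 11.57 and 11.40 in TAp63-/- skin. It stood at 9.33 and 9.90 in WT tumours and at 9.13, 9.72, 10.04 and 10.04 in TAp63-/- tumours. No tumour library reached the lowest skin library. Its partner arm miR-136-5p, at 10.13, 10.57 and 10.38 in WT skin and at 10.98, 10.54 and 10.30 in TAp63-/- skin, likewise did not overlap with the tumours, at 7.57 and 9.09 in WT tumours and at 8.44, 8.76, 8.86 and 9.67 in TAp63-/- tumours.

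**Figure D1:**
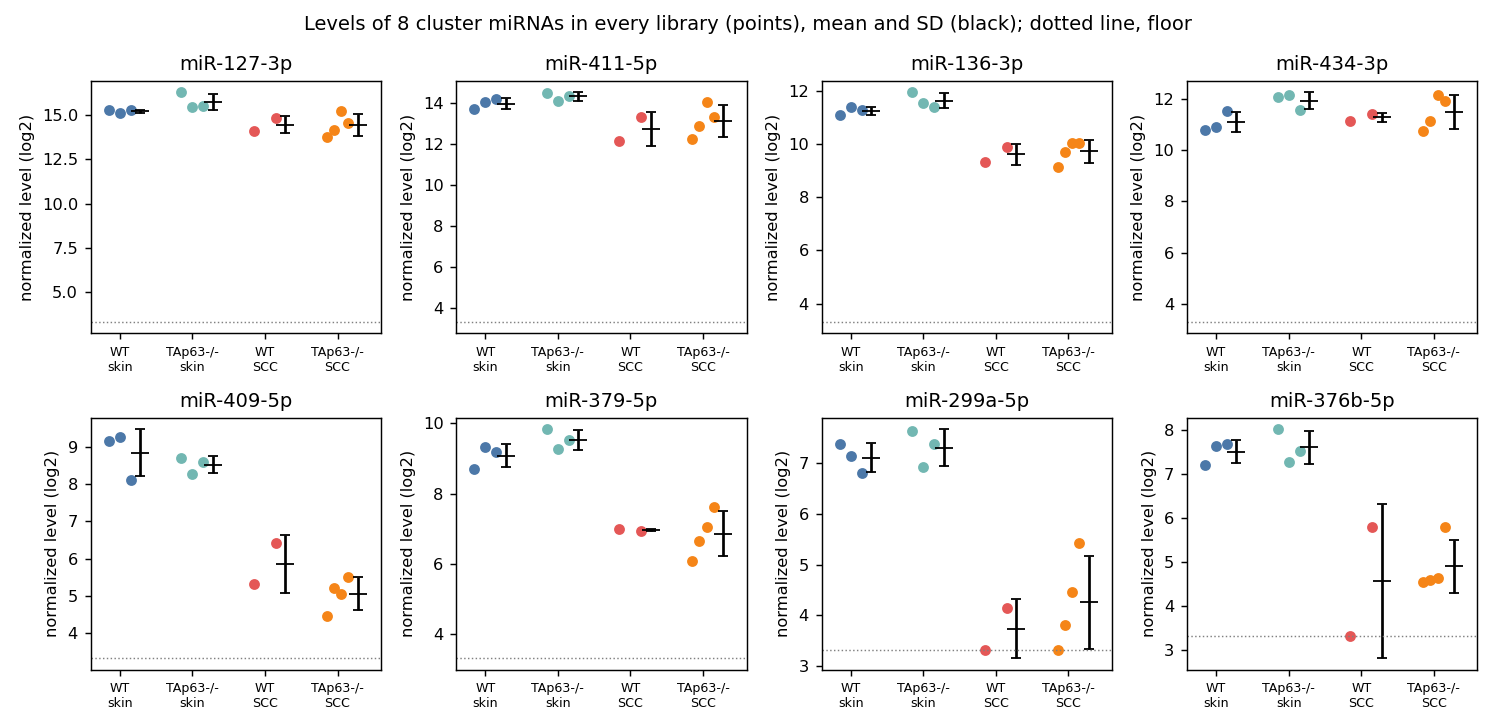
Normalized log2 level (vertical axes, which differ between panels) of 8 cluster miRNAs in each library (points) by group, with the group mean and SD in black and the floor of 3.3219 as a dotted line. miR-409-5p, miR-379-5p, miR-299a-5p, miR-376b-5p and miR-136-3p were lower in all tumour libraries than in all skin libraries, whereas miR-434-3p overlapped between skin and tumours.

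Tumours were compared with skin by the average of the WT and the TAp63-/- differences, which gives the genotypes equal weight, with limma and Benjamini-Hochberg adjustment over all 544 tested miRNAs of the table. A call is an adjusted p under 0.05. By this rule, 33 of the 61 cluster rows (54.1%), or 31 of the 59 distinct miRNAs, fell in tumours and 0 rose. At an unadjusted p under 0.05, 1 cluster row was higher. Over all tested miRNAs, 21.5% fell and 20.4% rose. Outside the cluster 84 of 483 (17.4%) fell and 111 rose. The median log2 change of the cluster rows was -0.87, against 0.04 over all tested miRNAs, and 52 of the 61 had a negative change. In 19 rows (31.1%) every tumour library lay below every skin library, as in 11.6% of all tested miRNAs. The opposite order held for 0 cluster rows and for 10.5% of all tested miRNAs.

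The largest change was that of miR-409-5p, near the distal end of the array. It stood at 9.16, 9.26 and 8.12 in WT skin and at 8.72, 8.26 and 8.59 in TAp63-/- skin. It was at 5.31 and 6.41 in WT tumours and at 4.46, 5.22, 5.06 and 5.50 in TAp63-/- tumours, so that all 6 tumour libraries lay below all 6 skin libraries. On the log2 scale it fell by 3.23 ± 0.31 (SE, adjusted p = 2.21e-05), a 9.36-fold lower level.

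miR-299a-5p was at 7.37, 7.14 and 6.81 in WT skin and at 7.63, 6.92 and 7.37 in TAp63-/- skin, and at 3.32 and 4.15 in WT tumours and at 3.32, 3.80, 4.47 and 5.43 in TAp63-/- tumours. It was at the floor in 1 WT and 1 TAp63-/- tumour, and fell by 3.21 ± 0.38 (SE, adjusted p = 8.29e-05). miR-376b-5p, whose hairpin belongs to a family known for adenosine-to-inosine editing, was at 7.20, 7.63 and 7.67 in WT skin and at 8.01, 7.27 and 7.52 in TAp63-/- skin. It stood at 3.32 and 5.80 in WT tumours and at 4.54, 4.60, 4.64 and 5.80 in TAp63-/- tumours, with WT tumour replicate 1 at the floor, and fell by 2.82 ± 0.42 (SE, adjusted p = 3.76e-04).

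miR-379-5p, from the first hairpin of the array, was at 8.72, 9.33 and 9.19 in WT skin and at 9.83, 9.26 and 9.52 in TAp63-/- skin. It was at 7.0 and 6.94 in WT tumours and at 6.10, 6.67, 7.07 and 7.63 in TAp63-/- tumours, again with no overlap between tissues, and fell by 2.39 ± 0.27 (SE, adjusted p = 7.33e-05). miR-369-5p, at 5.34, 6.42 and 6.79 in WT skin and at 6.97, 5.99 and 6.12 in TAp63-/- skin, stood at 3.32 and 4.69 in WT tumours and at 3.81, 3.66, 4.60 and 5.35 in TAp63-/- tumours. It fell by 2.09 ± 0.43 (SE, adjusted p = 0.00271), but TAp63-/- tumour replicate 4 reached the lowest WT skin library.

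Among the 5 miRNA genes antisense to Rtl1, 5 of 9 tested rows fell and the median change was -1.04. The 5p arm of miR-434 was at 9.56, 10.15 and 10.71 in WT skin and at 11.07, 10.87 and 11.05 in TAp63-/- skin. It was at 9.19 and 9.31 in WT tumours and at 8.58, 8.96, 9.85 and 9.78 in TAp63-/- tumours, overlapping with skin through WT skin replicate 1. Both arms of miR-136 fell, with miR-136-5p at -1.85 ± 0.30 (SE, adjusted p = 6.65e-04) and miR-136-3p at -1.78 ± 0.22 (SE, adjusted p = 1.06e-04). miR-127-3p fell by 1.04 ± 0.27 (SE, adjusted p = 0.00945), miR-434-5p fell by 1.30 ± 0.28 (SE, adjusted p = 0.00341) and miR-431-5p fell by 1.14 (adjusted p = 0.00341). The calls of miR-127-3p and miR-411-5p were lost without WT tumour replicate 1, with adjusted p of 0.0547 and 0.0632. The rows not called were miR-434-3p at -0.13 ± 0.27 (SE, adjusted p = 0.730), miR-127-5p at -0.50 (adjusted p = 0.300), miR-433-3p at -0.61 (adjusted p = 0.170) and miR-431-3p at -0.01 (adjusted p = 0.902).

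Upstream of the array and outside Rtl1, 4 of 8 tested rows fell, with a median of -1.07. These were both arms of miR-337, with a change of -1.82 (adjusted p = 0.00371) for the 3p and of -1.43 (adjusted p = 3.25e-04) for the 5p arm, then miR-540-5p with -1.31 (adjusted p = 0.0247) and miR-341-3p with -1.03 (adjusted p = 0.00590). miR-341-5p had the highest change of any cluster row, 1.68 ± 0.67 (SE, adjusted p = 0.0648), and was not called. It was at 3.32, 3.32 and 4.33 in WT skin and at 3.32, 4.01 and 3.67 in TAp63-/- skin, and at 3.32 and 6.0 in WT tumours and at 6.85, 7.72, 5.57 and 3.95 in TAp63-/- tumours, so skin libraries lay at or within about 1 log2 unit of the floor and the tumour libraries spread from the floor upward. The call of miR-540-5p was lost in 5 of 20 alternatives (adjusted p up to 0.104): with library quality weights and without WT skin replicate 2, WT skin replicate 3, TAp63-/- skin replicate 1 or WT tumour replicate 1. The values of miR-370-3p and miR-665-3p were -0.32 (adjusted p = 0.510) and -0.12 (adjusted p = 0.504).

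In the miR-379/miR-410 array, whose deletion in mice is known to disturb the metabolic adaptation of newborns, 24 of 44 tested rows fell and the median change was -0.79. The members at its start fell on both arms, with a change of -1.86 (adjusted p = 0.00146) for miR-379-3p, of -1.93 (adjusted p = 4.20e-04) for miR-411-3p and of -1.22 (adjusted p = 0.00997) for miR-411-5p. miR-299a-3p fell by 1.28 (adjusted p = 0.00308). miR-134-5p, known as a regulator of dendritic spine size through Limk1, fell by 0.87 (adjusted p = 0.00548). The changes of others that fell were -1.80 (adjusted p = 7.20e-04) for miR-154-5p, -1.93 (adjusted p = 0.00308) for miR-485-5p, -1.27 (adjusted p = 0.00505) for miR-496a-3p, -1.44 (adjusted p = 0.00622) for miR-376b-3p and -1.19 (adjusted p = 0.0144) for miR-382-3p. The call of miR-382-3p was lost without WT tumour replicate 1, where the change was -0.94. miR-485-5p was at the floor in both WT tumours and in TAp63-/- tumour replicates 1 and 2. It was at 3.45 and 3.43 in TAp63-/- tumour replicates 3 and 4, so the size of its change was limited by the floor.

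The most abundant 3p arms of the array fell as well. miR-300-3p was at 9.33, 9.46 and 9.82 in WT skin and at 10.51, 10.04 and 9.85 in TAp63-/- skin, and at 8.07 and 8.35 in WT tumours and at 7.58, 8.22, 9.09 and 8.68 in TAp63-/- tumours, without overlap, and fell by 1.53 ± 0.27 (SE, adjusted p = 0.00103). miR-381-3p, which differs from it in the seed, stood at 9.13, 9.06 and 10.08 in WT skin and at 11.78, 11.20 and 10.66 in TAp63-/- skin, and at 9.0 and 9.56 in WT tumours and at 8.67, 9.46, 10.22 and 9.82 in TAp63-/- tumours. Here WT skin and tumours overlapped, and the averaged change was -0.91 ± 0.33 (SE, adjusted p = 0.0427).

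miR-409-3p was at 8.29, 8.72 and 8.76 in WT skin and at 8.94, 8.93 and 9.26 in TAp63-/- skin, and at 7.43 and 7.79 in WT tumours and at 7.09, 7.01, 8.22 and 7.97 in TAp63-/- tumours, without overlap, and fell by 1.23 ± 0.26 (SE, adjusted p = 0.00308). miR-410-3p, from the last hairpin of the array, was at 10.21, 10.04 and 11.02 in WT skin and at 11.17, 11.64 and 11.42 in TAp63-/- skin. It was at 9.92 and 10.11 in WT tumours and at 9.56, 10.33, 10.87 and 10.57 in TAp63-/- tumours, overlapping with WT skin, and fell by 0.74 ± 0.26 (SE, adjusted p = 0.0416). The calls of miR-381-3p and miR-410-3p were lost in 11 and 9 of 20 alternatives, with adjusted p up to 0.159 and 0.125. The least stable call was that of miR-376c-3p. This miRNA was at the floor in every tumour library, so it entered the test through skin libraries alone. The call was lost in 13 of 19 alternatives, with a limma adjusted p of 0.257 under library quality weights. miR-487b-3p and miR-679-5p, at the floor in both WT tumours, were also called lower, and each call was lost in 2 of 20 alternatives. In all, 9 of the 33 calls were lost under at least 1 alternative.

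The remaining 20 tested rows of the array did not pass the test. They included miR-380-3p at 0.22 (adjusted p = 0.510), which is above the floor in all 12 libraries, miR-668-3p at -0.46 (adjusted p = 0.512), miR-541-5p at 0.51 (adjusted p = 0.356), miR-329-3p at -0.40 (adjusted p = 0.462) and miR-495-3p at -0.41 (adjusted p = 0.265). The share called was higher among rows above the floor in all libraries, with 21 of 30, than among those at the floor in some, with 12 of 31. The same split was not made over all tested miRNAs, so it cannot be read as a trait of the cluster. Across the 29 distinct miRNAs above the floor in all libraries, the change had a Spearman rho of 0.054 with position along the chromosome and of -0.21 with the mean level, given as a description since these miRNAs share the same libraries.

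**Figure D2:**
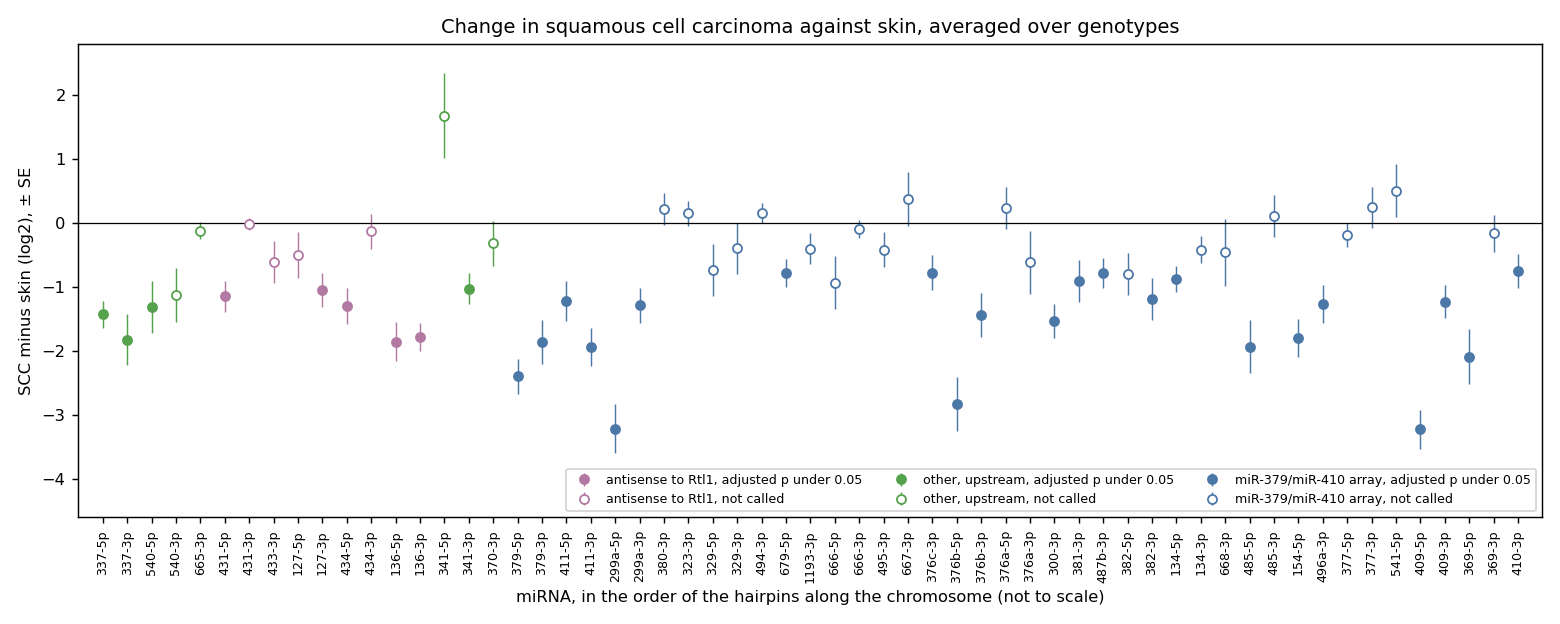
Averaged change of SCC against skin on the log2 scale (vertical axis, with SE) for the 59 distinct tested miRNAs in chromosome order (horizontal axis, not to scale), coloured by location, filled where the adjusted p was under 0.05. Filled points lie below 0 in all 3 locations, and miR-341-5p is the highest point, not called.

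The 4 miRNAs above the floor in 1 library were barely so. miR-410-5p was at 3.73 in WT skin replicate 2, miR-433-5p and miR-493-5p were both at 3.43 in TAp63-/- tumour replicate 4, and miR-1197-3p was at 3.35 in TAp63-/- tumour replicate 3. The 35 rows at the floor throughout included both rows of miR-412, miR-539, miR-543, miR-544, miR-654, miR-758 and miR-770, and the single rows of miR-882 and miR-496b. The other 19 were partner arms of hairpins with a detected arm.

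The fall differed between arms of some hairpins. Of the cluster rows, 16 of 24 tested 5p arms fell (median change -1.26) and 17 of 37 tested 3p arms (median -0.61). Outside the cluster 38 of 205 5p arms and 35 of 206 3p arms fell. The difference of 5p minus 3p sets the products of 1 hairpin against each other within a library. It was compared between tumour and skin for the 6 hairpins with both arms above the floor in all libraries. An exact two-sided permutation test within genotype was used, with adjustment over the 6 hairpins. This test was added after the values were seen, and 0.00286 is the smallest p its 350 permutations can give.

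For miR-434 the difference of 5p minus 3p was -1.24, -0.76 and -0.82 in WT skin and -1.0, -1.28 and -0.51 in TAp63-/- skin. It was -1.96 and -2.09 in WT tumours and -2.18, -2.19, -2.30 and -2.11 in TAp63-/- tumours. Every tumour library lay below every skin library. The change was -1.17 (exact permutation p = 0.00286, adjusted p = 0.0171), with miR-434-5p lower and miR-434-3p not called.

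For miR-409 the difference was 0.87, 0.55 and -0.65 in WT skin and -0.23, -0.67 and -0.67 in TAp63-/- skin. It was -2.12 and -1.38 in WT tumours and -2.64, -1.79, -3.16 and -2.48 in TAp63-/- tumours, again below every skin library. The arms were within 1 log2 unit of each other in every skin library, and the 3p arm was the higher in every tumour. The change was -2.0 (exact permutation p = 0.00571, adjusted p = 0.0171). The adjusted p stayed at or below 0.0300 for miR-434 and miR-409 when each library was left out in turn or 10 was added to the linear values.

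For miR-379 the change was -0.53 (exact permutation p = 0.0229, adjusted p = 0.0457), and skin and tumours overlapped. It was called in 4 of 13 alternatives. For miR-411 the 5p arm gained on the 3p arm by 0.71 (exact permutation p = 0.0343, adjusted p = 0.0514). miR-127 gave 0.54 (exact permutation p = 0.306) and miR-136 gave -0.08 (exact permutation p = 0.814). For miR-127 the difference in WT skin, -9.94, -9.83 and -8.54, was below that in TAp63-/- skin, -8.12, -7.54 and -7.80, and this was not tested.

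**Figure D3:**
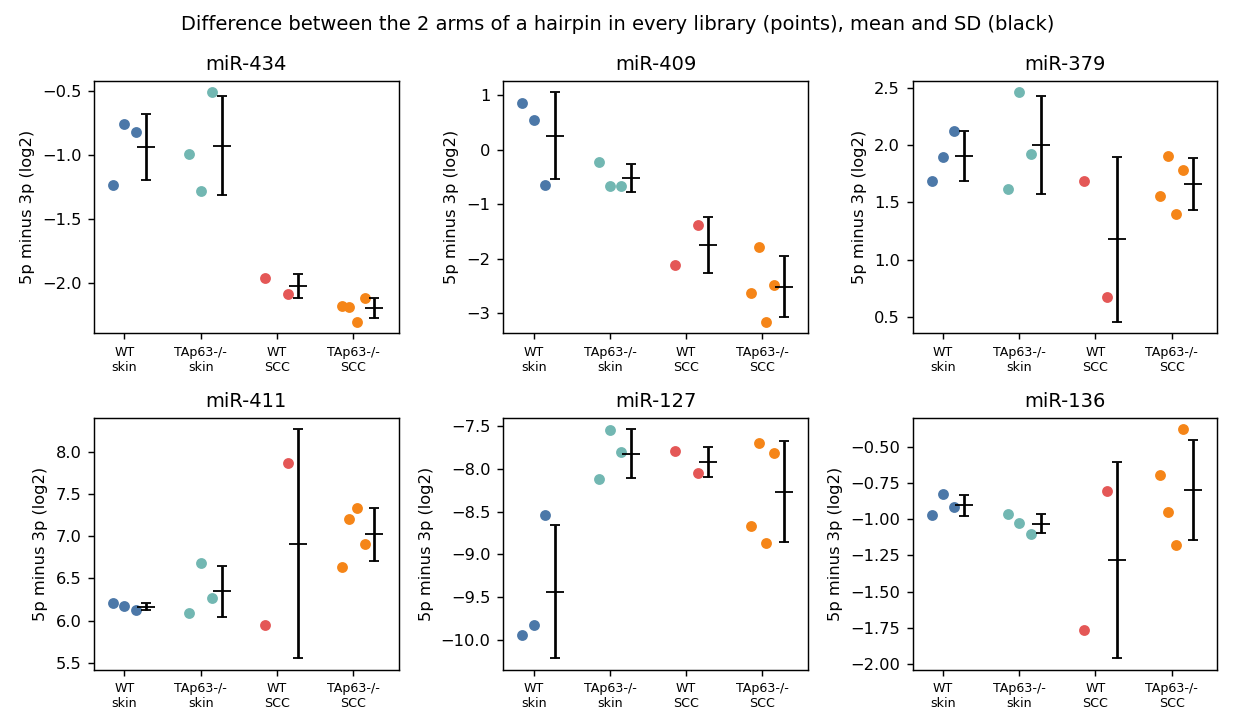
Difference of the 5p and the 3p arm on the log2 scale (vertical axes, which differ between panels) in each library (points) by group, for the 6 hairpins with both arms above the floor in all libraries, with mean and SD in black. The tumour libraries lie below all skin libraries for miR-434 and miR-409, and overlap with skin for the others.

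Within WT, 13 of the 61 cluster rows (21.3%) fell and 0 rose, against 9.38% of all tested miRNAs that fell and 8.82% that rose. In 25 rows (41.0%) both WT tumours lay below all WT skin libraries, as in 23.2% of all, and in 0 rows above them (20.6% of all). At an unadjusted p under 0.05, 0 rows were higher by limma. The median change was -0.50, against 0.00 over all. Within TAp63-/-, 36 of 61 (59.0%) fell and 0 rose, against 18.2% that fell and 16.0% that rose. In 38 rows (62.3%) the 4 tumours lay below the 3 skin libraries, as in 20.2% of all, and in 0 rows above them (17.8% of all). The median was -1.23, against 0.05. At an unadjusted p under 0.05, 2 rows were higher by limma. These comparisons use different skin and tumour libraries, but they are not independent. They come from 1 fit, with 1 estimate of the spread per miRNA over all 12 libraries, which were normalized together. All 12 distinct miRNAs that fell in WT were among the 34 that fell in TAp63-/-. They were both arms of miR-136 and miR-337, miR-154-5p, miR-299a-5p, miR-300-3p, miR-369-5p, miR-376b-5p, miR-379-5p, miR-409-5p and miR-411-3p. The WT count rests on 2 tumour libraries and was 4 without WT tumour replicate 1. The TAp63-/- count was 23 without TAp63-/- skin replicate 1.

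The further 22 distinct miRNAs that fell in TAp63-/- were not thereby shown to differ between genotypes. The difference of the tumour changes, TAp63-/- minus WT, was called for 0 of the 61 rows and 0 of all 544 tested miRNAs by limma (5 and 41 at an unadjusted p under 0.05). The most negative such differences were those of miR-127-5p, -2.51 ± 0.72 (SE, adjusted p = 0.442), and miR-299a-3p, -2.18 ± 0.54 (SE, adjusted p = 0.357). miR-299a-3p fell by 2.37 (adjusted p = 5.46e-04) in TAp63-/- and changed by -0.19 (adjusted p = 0.816) in WT. miR-127-3p, the most abundant member, changed by -1.31 (adjusted p = 0.0124) in TAp63-/- and -0.76 (adjusted p = 0.238) in WT.

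Markers of other cell types also moved between skin and tumour. Of 5 striated muscle miRNAs, 4 fell, and their summed level (the log2 of the sum of linear values) was 16.02 to 16.46 in the skin libraries and 12.21 to 14.94 in the tumours. Of the 2 melanocyte miRNAs 2 fell, with a summed level of 11.18 to 12.67 in skin and 6.47 to 10.73 in tumours. Of 6 fibroblast and stroma miRNAs 2 fell (miR-199a-5p and miR-199b-5p). The 6 had summed levels of 17.73 to 19.40 in skin and 17.44 to 18.73 in tumours. Most of this was miR-143-3p, at 17.23 to 19.25 in skin and 17.07 to 18.49 in tumours. This miRNA was not called in the averaged comparison (-0.60, limma adjusted p = 0.1455), and its change within WT was -0.03. Within TAp63-/- it fell by 1.18 (limma adjusted p = 0.0416). Of the 6, 3 fell within TAp63-/- and 1 within WT. Of 5 neural miRNAs 4 were tested, of which 3 fell and 1 rose. Their summed level was 11.09 to 11.75 in skin and 8.75 to 10.25 in tumours, and miR-124-3p, which defines neurons, was at the floor in all libraries. Of 7 epithelial miRNAs 1 rose and 1 fell, with summed levels of 18.33 to 18.80 in skin and 18.28 to 19.28 in tumours. Of 2 endothelial miRNAs 1 rose (15.53 to 15.94 in skin, 15.87 to 16.50 in tumours), of 4 leukocyte miRNAs 2 rose (14.19 to 14.65 and 13.96 to 15.91), and of 3 red cell miRNAs 2 rose (15.09 to 16.19 and 14.05 to 16.57). The part of these cell types in the fall of the cluster miRNAs was not tested.

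In untreated skin, TAp63-/- was compared with WT. No cluster row passed the test, and limma called 0 of all 544 tested miRNAs as well. At an unadjusted p under 0.05 there were 13 cluster rows, all higher in TAp63-/-, and 31 over all tested miRNAs. The median log2 difference of the cluster rows was 0.37, against 0.00 over all tested miRNAs and -0.03 outside the cluster. Of the 59 distinct miRNAs, 54 had a positive difference, 4 a negative one and 1 none. In 19 of 61 rows (31.1%), or 18 distinct miRNAs, every TAp63-/- skin library lay above every WT skin library. This held for 6.80% of all tested miRNAs and for 18 of 483 (3.73%) outside the cluster. The reverse order held for 0 cluster rows and for 5.15% of all tested miRNAs.

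**Figure D4:**
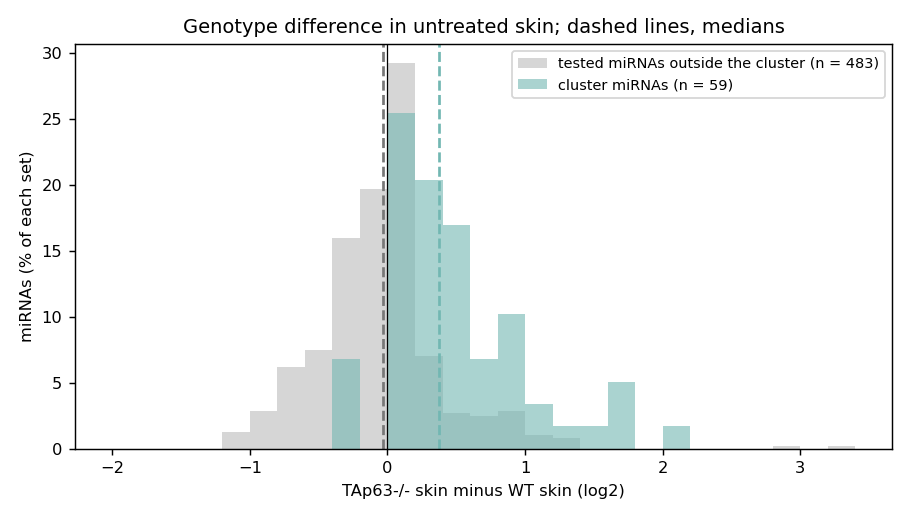
Log2 difference of TAp63-/- and WT skin (horizontal axis) as a percentage of each set (vertical axis), for the 59 distinct cluster miRNAs and the 483 tested miRNAs outside the cluster, with dashed lines at the medians. The median was 0.37 in the cluster, and no single miRNA in it passed the adjusted test.

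miR-127-5p had the largest difference in skin and is given in full because of it, as are the next rows, which were picked after their values were seen. It was at 5.34, 5.30 and 6.74 in WT skin and at 8.17, 7.90 and 7.74 in TAp63-/- skin. It was at 6.33 and 6.77 in WT tumours and at 5.12, 6.49, 6.36 and 6.75 in TAp63-/- tumours, near the WT skin range. The difference in skin was 2.14 ± 0.49 (SE, adjusted p = 0.252). For miR-381-3p, whose levels in each library are given above, it was 1.79 ± 0.45 (SE, adjusted p = 0.252).

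miR-370-3p, from an intron of Rian, was at 3.32, 3.32 and 3.32 in WT skin and at 5.54, 5.43 and 4.14 in TAp63-/- skin. It was thus at the floor in all WT skin libraries, and the difference of 1.72 ± 0.49 (SE, adjusted p = 0.324) is a fitted value and no bound. It was at 3.32 and 3.32 in WT tumours and at 4.40, 5.37, 4.41 and 3.45 in TAp63-/- tumours, and again only TAp63-/- libraries were above the floor. Other differences in skin were those of miR-329-3p, 1.65 (adjusted p = 0.501), miR-540-3p, 1.54 (adjusted p = 0.572), miR-299a-3p, 1.38 (adjusted p = 0.263), and miR-679-5p, 1.20 (adjusted p = 0.252). The abundant miR-127-3p differed by 0.52 (adjusted p = 1) and miR-410-3p by 0.98 (adjusted p = 0.572).

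These skin differences spread over the locations. The groups did not overlap for 5 of 9 rows antisense to Rtl1, 12 of 44 of the array and 2 of 8 upstream. With limma's library quality weights, which give less weight to libraries that deviate more, 10 of the 61 cluster rows were called higher, against 20 of all 544 tested miRNAs, among them miR-127-5p, miR-381-3p, miR-299a-3p, miR-370-3p and miR-341-3p. Beside this, none of the 6 fibroblast and stroma miRNAs was called without these weights. Their summed level was 18.68 to 19.40 in TAp63-/- skin and 17.73 to 18.51 in WT skin. This sum was carried by miR-143-3p, at 17.54, 17.23 and 18.21 in WT skin and at 19.25, 19.25 and 18.49 in TAp63-/- skin (difference 1.33, adjusted p = 0.467). The other 5 differed by -0.26 to 0.20, and the median of the 6 was 0.06. Muscle miRNAs summed to 16.02 to 16.46 and 16.16 to 16.28, and epithelial ones to 18.33 to 18.62 and 18.36 to 18.80. The part of miR-143-3p and of fibroblasts and stroma in the skin differences was not tested.

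Between TAp63-/- and WT tumours, 0 of 61 cluster rows passed the test, against 1 (0.184%), lower in TAp63-/-, of all 544. At an unadjusted p under 0.05 there were 2 cluster rows and 46 of all tested. The median difference of the cluster rows was 0.12, against 0.07. In 3 rows, those of miR-541-5p, miR-370-3p and miR-494-3p, every TAp63-/- tumour lay above both WT tumours, as in 6.07% of all tested miRNAs. In 0 cluster rows every TAp63-/- tumour lay below both WT tumours (4.23% of all). miR-541-5p was at 3.32 and 3.32 in WT tumours and at 5.79, 5.26, 5.97 and 3.78 in TAp63-/- tumours, with a difference of 1.88 ± 0.60 (SE, adjusted p = 0.313). It was at 3.32, 4.41 and 3.32 in WT skin and at 3.32, 3.78 and 4.36 in TAp63-/- skin, where the genotypes overlapped.

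Other miRNAs of the same domain, whose numbers were not in the rule, were few. Of 6 tested rows 1 fell in tumours and 0 rose, near the 21.5% that fell over all tested miRNAs, and their median change was 0.29. miR-673-5p fell by 1.25 (adjusted p = 0.0287). The others were miR-1188-5p at 1.65 (adjusted p = 0.0648), miR-1247-5p at 0.47 (adjusted p = 0.432), miR-673-3p at 0.37 (adjusted p = 0.564), miR-1247-3p at 0.21 (adjusted p = 0.234) and miR-3072-3p at -0.07 (adjusted p = 0.606). Among miRNAs of other imprinted loci, 5 rows were tested and 2 rose, both arms of miR-335, which lies in the paternally expressed gene Mest. miR-335-3p was at 6.55, 6.25 and 5.48 in WT skin and 5.19, 5.28 and 5.90 in TAp63-/- skin, and at 10.07 and 8.24 in WT tumours and 8.76, 8.47, 10.51 and 9.26 in TAp63-/- tumours. It rose by 3.43 (adjusted p = 1.09e-04), and miR-335-5p rose by 1.77 (adjusted p = 1.21e-04). The other 3 rows, from H19, Igf2 and the Gnas region, were not called.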

How the data were processed

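The authors deposited 1 table of log2 values for 1251 mouse miRNAs in 12 libraries of total RNA. The values are quantile normalized and floored at the log2 of 10, as read from the values. The submitters' processing notes name the build mm10. Which aligner, counter and miRBase version were used was not given in the sources used here. Without counts, depth is unknown and counting intervals are not printed.

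The 544 rows that exceeded the floor in 2 or more libraries entered a fit with limma 3.58.1 in R 4.3.3, with 4 group means and empirical Bayes moderation with trend and robust (8 residual degrees of freedom, median prior 3.199). Benjamini-Hochberg adjustment ran over all 544. The procedure was tested on simulated data. Given library by library were the 10 members with the highest mean, the 6 with the largest called averaged change, and any called between genotypes. The arm test, and miR-127-5p, miR-370-3p, miR-341-5p and miR-541-5p in full, were added after the values were seen. Lists outside the members were planned as counts and ranges only. The library values of miR-335-3p, and of miR-143-3p in skin, go beyond that plan. The members and lists were chosen with earlier results of these data known. Cell type lists used miR-126 names as the table spells them. Sequences and coordinates came from RefSeq (GRCm38.p6), and gene models and 2 hairpins from GENCODE. Replicates are numbered in accession order. Alternatives covered scaling, the filter, a pseudocount, the moderation, library weights, the groups fitted and leaving out each library.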

Additional observations from a re-analysis of the deposited data

Results flagged for a closer look

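miR-376b-5p in TAp63-/- tumours was checked for a library far from the others of its group. TAp63-/- tumour replicate 4 was at 5.80 on the log2 scale, and the nearest other library was at 4.64. That gap is 0.919 of the range of the group, above Dixon's 95% critical value for 4 libraries. All 4 values were below the skin libraries. This was the 1 flag among 23 values checked, and chance flags about 1 in 20 groups.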

How the results depend on the processing

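No setting turned the direction of a called cluster miRNA. Of the 33 averaged calls, 24 were kept under all settings, as were 3 of 13 in WT and 20 of 36 in TAp63-/-. Without each library in turn, the averaged count of cluster rows called was 25 to 36, the WT count 4 to 14 (lowest without WT tumour replicate 1) and the TAp63-/- count 23 to 39 (lowest without TAp63-/- skin replicate 1). The genotype comparisons and the interaction gave 0 to 0. Library quality weights gave 10 cluster rows called in TAp63-/- against WT skin, and 22 of all tested miRNAs. The cause was not tested. At most 2 cluster rows were called higher in a tumour comparison under any setting. Median-ratio scaling moved the median of all tested miRNAs in TAp63-/- from 0.05 to 0.12 and that of the cluster rows from -1.23 to -1.14. Leaving out a WT tumour leaves 1 library, assumed to vary like the other groups. Values at the floor have no spread, which can make p-values too small. No paired analysis was possible because the labels give no replicate numbers.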
